A study of Homo sapiens with 19 samples.

Results

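SNORD127 is a box C/D small nucleolar RNA, and 18S-1447 is the nucleotide of 18S ribosomal RNA (rRNA) for which the deposited site list names it as the guide. The gene lies on chromosome 14 at 45110875 to 45110975 in GRCh38.p14 (RefSeq), within the protein-coding gene PRPF39, which codes for a pre-mRNA splicing factor. The members described here are 1 of the 120 listed rRNA sites and 26 of the 7000 rRNA positions with end counts, those from 12 nucleotides before to 13 after the site, in all 19 libraries. Positions in this window are written as their distance from the site, so that +1 is the nucleotide after it.

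A box C/D small nucleolar RNA pairs with a short stretch of rRNA and brings the methyltransferase fibrillarin (FBL) to a single nucleotide, whose ribose then carries a methyl group on its 2′ oxygen. The guide decides where the group is placed, while FBL serves nearly all such guides, so loss of a guide and loss of the enzyme ask different questions of the same nucleotide. The nucleotide belongs to the part of 18S rRNA that folds into the head of the small ribosomal subunit. RiboMethSeq reads methylation as protection: alkali cuts RNA between nucleotides, a methylated ribose resists the cut next to it, and the fragment ends leave a gap there.

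The study used Kasumi-1, a cell line from acute myeloid leukemia, and total RNA. In 14 libraries, all grown with doxycycline at 100 ng/ml, FBL knockdown (FBL KD) or a control knockdown (Ctrl KD) was induced, with 2 libraries per group. The 7 groups were FBL KD with no re-expression, FBL KD re-expressing the FBLTri mutant, the FBLQua mutant or wild-type FBL, FBL KD with empty vector, Ctrl KD, and Ctrl KD with empty vector. The other 5 libraries came from single clones: SNORD127 knockout (KO) clones C1 and C34, clone C1 with SNORD127 put back, clone C1 with empty vector, and a control clone, each as 1 library. Clone C1 thus gave 3 of the 5 libraries. The labels do not say which residues differ in FBLTri and FBLQua, and the column names of the 2 mutants (Dual and Tri) conflict with the titles, which were followed. The control clone's column name has the form of the KO clones' names, so its role also rests on its title. In the column names, the number beside the FBL hairpin (the RNA used for knockdown) differs between FBL KD without a vector and the other FBL KD groups. It also differs between the 2 FBL KD libraries without a vector. The labels do not say whether it names a hairpin or a replicate, so the hairpin may differ too. The labels leave unsaid whether the replicates came from separate cultures, and the p-values then refer only to the spread among these libraries, possibly a technical one. The levels of SNORD127 RNA and of FBL itself were not analysed here.

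End counts totalled 5533150 to 18835537 per library. The count that reports on 18S-1447, at position +1, was 108 to 2873, against a mean of 391.5 to 3564 at the flanking positions. Score C is 1 minus the ratio of these numbers, a fraction that is near 1 when the position is fully protected and is set to 0 when the count exceeds its flanks. The 95% counting intervals of score C at 18S-1447 reached 0.00926 to 0.0962 to either side, and they cover counting error only. Replicate 2 of Ctrl KD with empty vector stood apart: 20.8% of all its ends fell on 1 position of 28S rRNA, and 13599 ends, 37.0% of the window, fell on position -1, which is a flank of 18S-1447. In the other 18 libraries position -1 held 3.76% to 5.81% of the window. The main differences that rest on this library are therefore also given without it or without position -1, a setting chosen after seeing the data. Ranks among sites, counts of sites called and correlations are not.

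18S-1447 scored low in every library that lacked SNORD127 and highest in the library where SNORD127 was put back. Score C at 18S-1447 was 0.178 in KO clone C1, 0.254 in KO clone C34 and 0.0611 in C1 with empty vector, against 0.951 in C1 with SNORD127 put back and 0.543 in the control clone. The 3 libraries without SNORD127 all lay below the 2 libraries with it, and no counting interval of one set reached the other. The interval ran from 0.143 to 0.212 for C1, from 0.222 to 0.283 for C34 and from 0.0185 to 0.102 for C1 with empty vector. It ran from 0.941 to 0.960 for C1 with SNORD127 and from 0.519 to 0.565 for the control clone.

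Averaged, score C was 0.164 ± 0.0969 without SNORD127 (SD, n = 3) and 0.747 ± 0.289 with SNORD127 (SD, n = 2). limma over the 120 sites gave a difference of -0.583 (SE 0.0598, 95% interval -0.717 to -0.449, adjusted p = 0.000369). 18S-1447 was the 1 site of 120 called lower, which is 0.833% of the sites, and none was called higher. The site next in size was 18S-1680, at -0.0524 (adjusted p = 1.00). This fit takes its spread from the replicated groups, since the clones have 1 library each, and the call is lost without the C1 library with SNORD127 (-0.378, adjusted p = 0.0746). It is also lost when only these 5 libraries are fitted (adjusted p = 0.134), where the spread comes solely from KO clones C1 and C34, fitted as 1 group. In that fit 1 site of 120 other than 18S-1447 was called lower (0.833%) and 0 higher. The two-sided exact permutation test on the 5 libraries gave p = 0.200, the smallest that their 10 arrangements allow. 2 of the 3 libraries without SNORD127 and the restored library come from clone C1, so the tests on these libraries treat as independent samples what are 2 KO clones, and their p-values are too small as tests over clones. Set against all 6 FBL-intact libraries with SNORD127 (0.679 ± 0.152, SD, n = 6), the 3 libraries without it were lower by 0.515, with a two-sided exact permutation p = 0.0238, the smallest that 84 arrangements allow. Without replicate 2 of Ctrl KD with empty vector that difference was -0.499 (exact permutation p = 0.0357). 4 of those 6 libraries came from the control knockdown and received doxycycline, which cannot be told apart from having SNORD127 in them. In the limma fit, where that replicate enters through the spread, leaving it out gave an adjusted p of 0.000199.

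**Figure D1:**
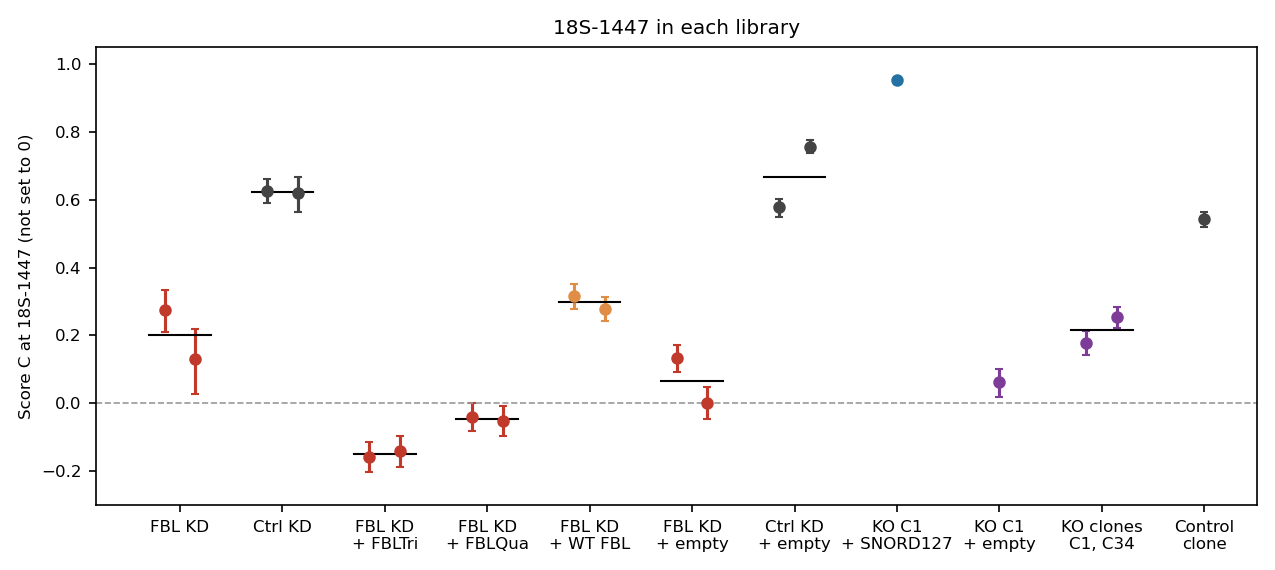
Score C at 18S-1447 (vertical axis, a fraction without unit, not set to 0 where negative) in each of the 19 libraries, by group. Points are libraries, bars are 95% counting intervals and horizontal lines are group means. Clone C1 with SNORD127 sits at 0.951, while the same clone with empty vector is at 0.0611 and the FBLTri libraries lie below 0.

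The deletion alone, without the restored library, gave 0.216 ± 0.0536 in the 2 KO clones (SD, n = 2) and 0.543 in the control clone. The difference of -0.327 (SE 0.0802, 95% interval -0.507 to -0.147) had an unadjusted p of 0.00251 and did not pass limma's adjustment over 120 sites (adjusted p = 0.301). It had the most negative estimate of the 120 sites, with 28S-2739 next at -0.0293. On the positive side the largest estimate was 0.0651, at 18S-1680. In this comparison 0 sites were called in either direction (0%), and 3 sites had an unadjusted p under 0.05. Leaving out replicate 2 of Ctrl KD with empty vector, which enters here only through the spread, gave an adjusted p of 0.112. With position -1 left out of the flanks the difference was -0.316 and passed (adjusted p = 0.0422), and with the median of the 12 flanking counts it was -0.406 (adjusted p = 0.0106). Both settings were chosen after seeing the data, and the SE was 0.0583 and 0.0609 under them, in that order, against 0.0802 with the deposited scores.

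Clone C1 with SNORD127 and clone C1 with empty vector are the closest pair in the design, as both come from the same clone. The labels do not say whether SNORD127 was carried by the same vector. The scores of the pair differed by 0.890 (95% counting interval 0.847 to 0.933). With 1 library each the difference has no replicate check. Among the other 119 sites the same difference ran from -0.0544 at 18S-1272 to 0.209 at 18S-1680, with a median of 0.00157, and 18S-1680 was the 1 site beyond 0.1. The 2 C1 libraries that lack SNORD127 scored 0.0611 with empty vector and 0.178 without it, and their counting intervals do not overlap. The restored library was also above the control clone, at 0.951 against 0.543, and above all 4 Ctrl KD libraries, which scored 0.577 to 0.756.

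As a share of all ends in the window, position +1 ranked the 5 libraries in the reverse of their order by score C. It held 4.47% of the window's ends in KO clone C1, 4.07% in C34 and 5.12% in C1 with empty vector, against 0.278% in C1 with SNORD127 and 2.56% in the control clone. The Wilson 95% interval for the restored library was 0.231% to 0.336%. Relative to position +2 beside it, the count at +1 was 1.01 in C1, 0.931 in C34 and 0.924 in C1 with empty vector, against 0.0439 in C1 with SNORD127 and 0.549 in the control clone. By this ratio, too, the 3 libraries without SNORD127 lay above the 2 with it, but C1 was the highest of the 3, while C1 with empty vector had the lowest score C. Ends at +1 were about as frequent as at the next position when SNORD127 was missing.

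**Figure D2:**
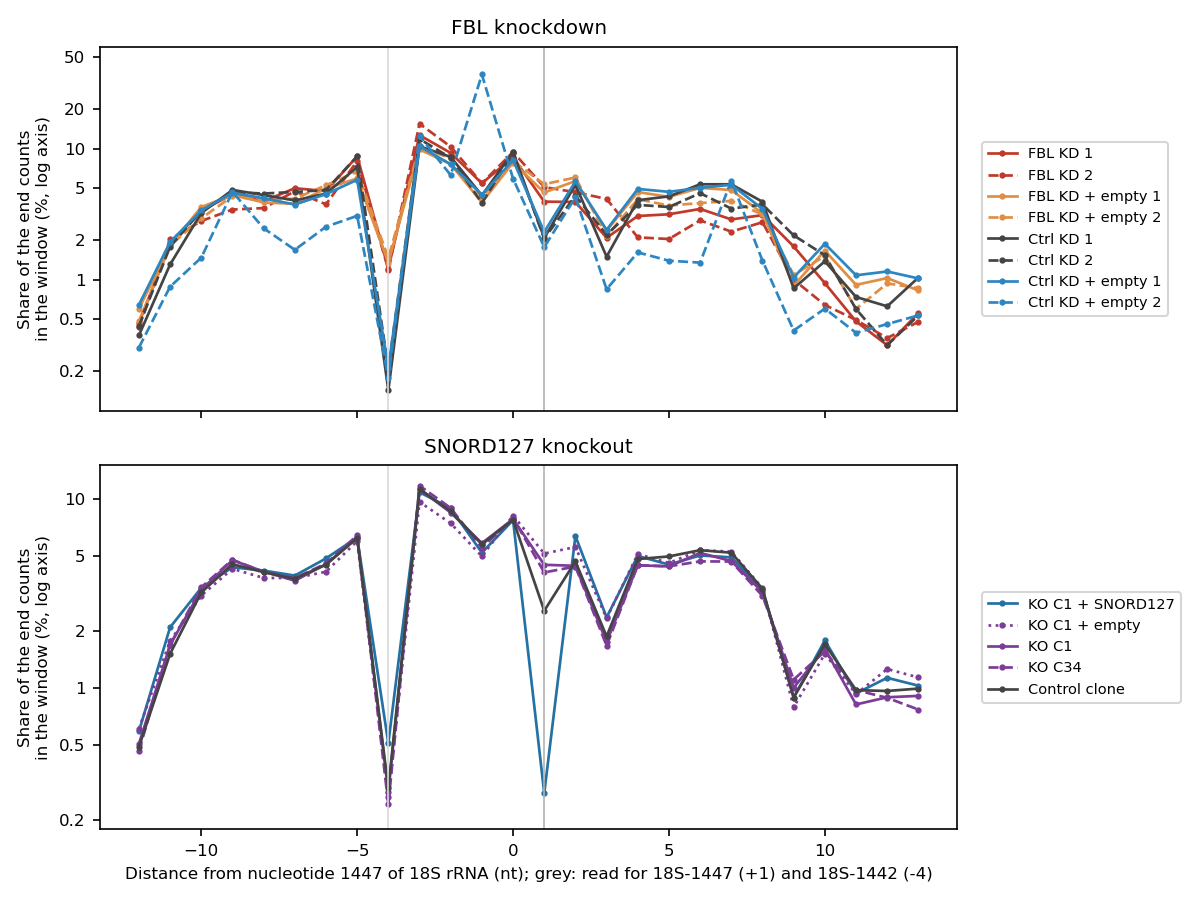
Share of the window's end counts (percent, log axis) at each position, by distance from the site in nucleotides. The top plot holds the FBL KD and Ctrl KD libraries without a re-expressed FBL, and the bottom plot the 5 clone libraries. At +1 the restored clone drops to 0.278% while C1 with empty vector is at 5.12%, and replicate 2 of Ctrl KD with empty vector peaks at 37.0% 1 position before the site.

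Across positions, the edgeR test on end counts gave a log2 fold change of 0.61 at +1 in the KO clones over the control clone. Its unadjusted p was 0.0381 and it did not pass the adjustment (adjusted p = 1.00). Of 6353 positions tested 0 were called higher (0%) and 0 lower (0%), DESeq2 also called 0, and 11 positions higher and 21 lower had an unadjusted edgeR p under 0.05. The other 25 positions of the window lay between -0.38 and 0.11 on the log2 scale, all below position +1. Among all 6353 positions tested, +1 ranked only 210 from the highest log2 fold change.

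FBL knockdown lowered 18S-1447 as well. Without a vector, score C was 0.275 and 0.129 in FBL KD and 0.627 and 0.618 in Ctrl KD. With empty vector it was 0.133 and 0.000717 in FBL KD and 0.577 and 0.756 in Ctrl KD. All 4 FBL KD libraries lay below all 4 Ctrl KD libraries. Over both backgrounds the mean was 0.134 ± 0.112 in FBL KD and 0.645 ± 0.0776 in Ctrl KD (SD, n = 4 each), a difference of -0.510 (SE 0.0471, limma adjusted p = 9.43e-06). The two-sided exact permutation test gave p = 0.0286, the smallest that 70 arrangements allow. Without replicate 2 of Ctrl KD with empty vector the exact permutation test gave -0.473 and p = 0.0571, the smallest that 4 against 3 libraries allow. The limma difference was -0.434 without position -1 (adjusted p = 2.07e-06) and -0.465 without replicate 2 of Ctrl KD with empty vector (adjusted p = 2.74e-05).

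A lower score was the rule under FBL knockdown, with 86 of 120 sites called lower (71.7%) and 2 higher (1.67%), so the call alone does not set 18S-1447 apart. With all libraries set to the same median score, which moves every difference by 0.118, 18S-1447 was at -0.392 and still called, while 39 sites were called lower and 57 higher. Its size ranked 5 of 120 and first among the 47 listed 18S sites, between 28S-2402 at -0.560 and 28S-4020 at -0.412. Among the other 17 listed sites in the 3′ part of 18S rRNA, from position 1200 on, 8 were called lower and 1 higher, with a median difference of -0.0444. The 29 listed sites before position 1200 had 17 called lower and a median of -0.0371. The 71 sites of 28S rRNA had 59 called lower and a median of -0.153, and the median of all 120 sites was -0.0853.

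Both backgrounds gave the fall on their own. They may differ in the hairpin as well as in the vector, which was not tested. Without a vector the difference was -0.421 (adjusted p = 0.000493, 59.2% of sites called lower), and with empty vector it was -0.600 (adjusted p = 3.8e-05, 67.5% of sites called lower). With empty vector it was -0.510 without replicate 2 of Ctrl KD with empty vector (adjusted p = 0.000259). The difference between these effects was -0.179 (SE 0.0942, 95% interval -0.395 to 0.0363, adjusted p = 0.188). In that test 25% of sites were called lower and 5% higher. This difference turned to 0.0502 when the flanks were taken as a median, and without replicate 1 of Ctrl KD with empty vector it was -0.269 and passed (adjusted p = 0.0430). Without replicate 2 of that group it was -0.0895 (adjusted p = 0.514). Replicate 2 of Ctrl KD with empty vector scored 0.576 in place of 0.756 once position -1 was left out, next to 0.595 in replicate 1.

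**Figure D3:**
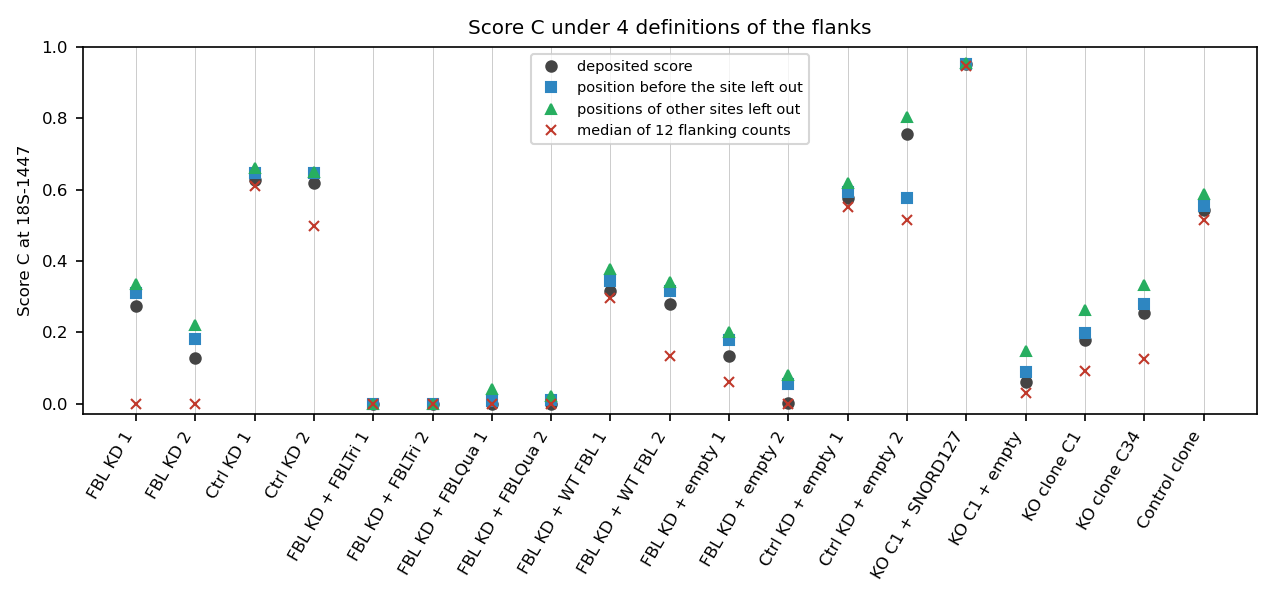
Score C at 18S-1447 in each library (vertical axis, a fraction without unit) under 4 definitions of the flanks, marked by symbol. Replicate 2 of Ctrl KD with empty vector moves from 0.756 to 0.576 when the position before the site is left out, while the restored clone stays between 0.945 and 0.956. With the median of the flanking counts, the FBL KD libraries without a vector score 0, in place of 0.275 and 0.129.

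By counts, position +1 held 3.96% and 5.11% of the window in FBL KD and 2.09% and 2.07% in Ctrl KD. With empty vector it held 4.65% and 5.38% in FBL KD and 2.32% and 1.78% in Ctrl KD. Over both backgrounds edgeR gave a log2 fold change of 1.18 without replicate 2 of Ctrl KD with empty vector and of 1.13 with it (adjusted p = 0.00177). 69 of 6276 positions were called higher (1.10%) and 0 lower (0%, with 387 at an unadjusted p under 0.05). Of these 69, 68 were positions that report on a listed site. The number called depended on single libraries, with 536 higher and 144 lower without replicate 2 of Ctrl KD, and 106 higher and 267 lower without replicate 1 of Ctrl KD with empty vector. DESeq2 called 15 positions lower. Within the window the called positions were +1 and -4, which reports on 18S-1442, where the log2 fold change was 2.76 (adjusted p = 6e-06). The other 24 positions lay between -1.16, at position -1, and 0.58.

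**Figure D4:**
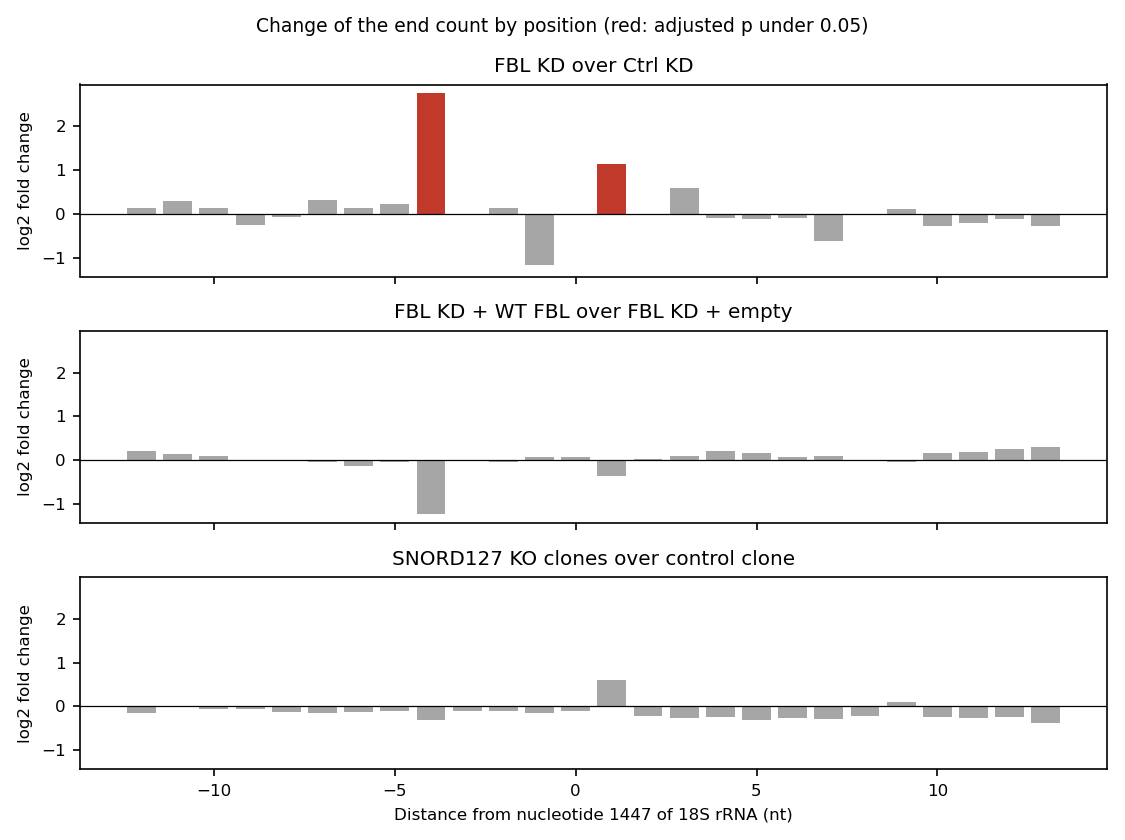
Log2 fold change of the end count from edgeR (vertical axis) at each of the 26 positions, by distance from the site in nucleotides, for 3 comparisons, red where the adjusted p was under 0.05. FBL KD over Ctrl KD has red bars at +1 (1.13) and at -4 (2.76), and the KO clones over the control clone have their tallest bar at +1 (0.61), which did not pass.

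18S-1447 scored higher with wild-type FBL than with empty vector, by a difference whose call depended on the fit. Score C was 0.316 and 0.279 with wild-type FBL and 0.133 and 0.000717 with empty vector, both in FBL KD cells, and the groups did not overlap. The difference was 0.230 (SE 0.0666, 95% interval 0.0781 to 0.383, limma adjusted p = 0.0173), with 57.5% of sites called higher. It ranked 14th of the 120 sites, between 28S-3697 at 0.232 and 28S-3680 at 0.227. The call was lost without replicate 2 of FBL KD with empty vector (adjusted p = 0.108) and without replicate 1 of wild-type FBL (adjusted p = 0.0769). It was also lost with all libraries set to the same median score, where the difference was 0.135 (adjusted p = 0.122), with the compared groups only (adjusted p = 0.0516) and on the log2 scale (adjusted p = 0.144). By end counts the change at +1 was -0.37 on the log2 scale (adjusted p = 1.00), where 0.143% of positions were called lower, all 9 of them positions of listed sites. That count was 0 without any 1 of the 4 libraries compared and 30 with DESeq2.

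Against Ctrl KD with empty vector, the wild-type FBL libraries were still lower at 18S-1447, with 0.297 ± 0.0262 in FBL KD with wild-type FBL and 0.667 ± 0.127 in Ctrl KD with empty vector (SD, n = 2 each). The difference of -0.369 (adjusted p = 0.00304) ranked 3 from the most negative of the 120 sites, of which 29.2% were called lower. Without replicate 2 of Ctrl KD with empty vector it was -0.280 (adjusted p = 0.0182), and without position -1 it was -0.255 (adjusted p = 0.00297). Sites around it in rank were 28S-1868 at -0.396 and 28S-2863 at -0.329. These comparisons share their empty vector controls with those above.

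Neither mutant gave a deposited score above 0. Both FBLTri and both FBLQua libraries scored 0, against 0.316 and 0.279 with wild-type FBL. Before being set to 0 the values were -0.158 and -0.142 with FBLTri and -0.0394 and -0.0515 with FBLQua, so ends at +1 outnumbered the flank mean in all 4 libraries. The difference from wild-type FBL was -0.297 for each mutant, with adjusted p = 0.00414 for FBLTri (62.5% of sites called lower) and 0.00456 for FBLQua (59.2% called lower). Because a score cannot fall below 0, these differences are limited by the level with wild-type FBL. Without setting negative values to 0, they were -0.447 for FBLTri (limma adjusted p = 0.000432) and -0.343 for FBLQua (limma adjusted p = 0.00223).

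Against empty vector the difference was -0.0668 for each mutant, with a 95% interval from -0.219 to 0.0856. As every mutant score was 0, this is the empty vector mean with its sign turned, the lowest value possible. The deposited scores therefore cannot show whether either mutant was lower than empty vector by more than that, or differed from the other mutant. limma's adjusted p was 0.510 for FBLTri, where 20% of sites were called lower and 16.7% higher, and 0.582 for FBLQua, where 11.7% were called lower and 7.5% higher. Without setting negative values to 0, FBLTri was lower than empty vector by 0.216 (adjusted p = 0.0424). The difference for FBLQua was then -0.112 (limma adjusted p = 0.334). Position +1 held 6.09% and 6.10% of the window with FBLTri and 5.61% and 5.55% with FBLQua, against 3.79% and 3.88% with wild-type FBL.

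The nearest listed sites were 18S-1442, 5 nucleotides before 18S-1447 and assigned to SNORD61, another box C/D guide, and 18S-1441. At 18S-1442, score C was 0.953 in KO clone C1, 0.960 in C34 and 0.953 in C1 with empty vector, against 0.913 in C1 with SNORD127 and 0.950 in the control clone. The KO clones differed from the control clone there by 0.00661 (95% interval -0.0194 to 0.0327, adjusted p = 1.00). Restored and empty vector libraries of C1 differed at 18S-1442 by -0.0409 (95% counting interval -0.0559 to -0.0258, no replicate check). Position +1 is itself a flank of 18S-1442, and its count was 108 in C1 with SNORD127 and 2109 in C1 with empty vector, while the count at -4 was 198 in C1 with SNORD127 and 109 in C1 with empty vector.

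FBL knockdown lowered both sites, with differences of -0.510 at 18S-1447 and -0.178 at 18S-1442 (adjusted p = 5.23e-08). 18S-1442 was at a higher level in both groups, with 0.792 ± 0.0352 in FBL KD and 0.970 ± 0.00686 in Ctrl KD (SD, n = 4 each). With the mutants it kept scores of 0.633 and 0.652 (FBLTri) and 0.701 and 0.702 (FBLQua), against 0.890 and 0.903 with wild-type FBL, in libraries where 18S-1447 scored 0 with both mutants. At 18S-1441 score C was 0 in 18 libraries and 0.518 in replicate 2 of Ctrl KD with empty vector, which became 0.219 without position -1.

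**Figure D5:**
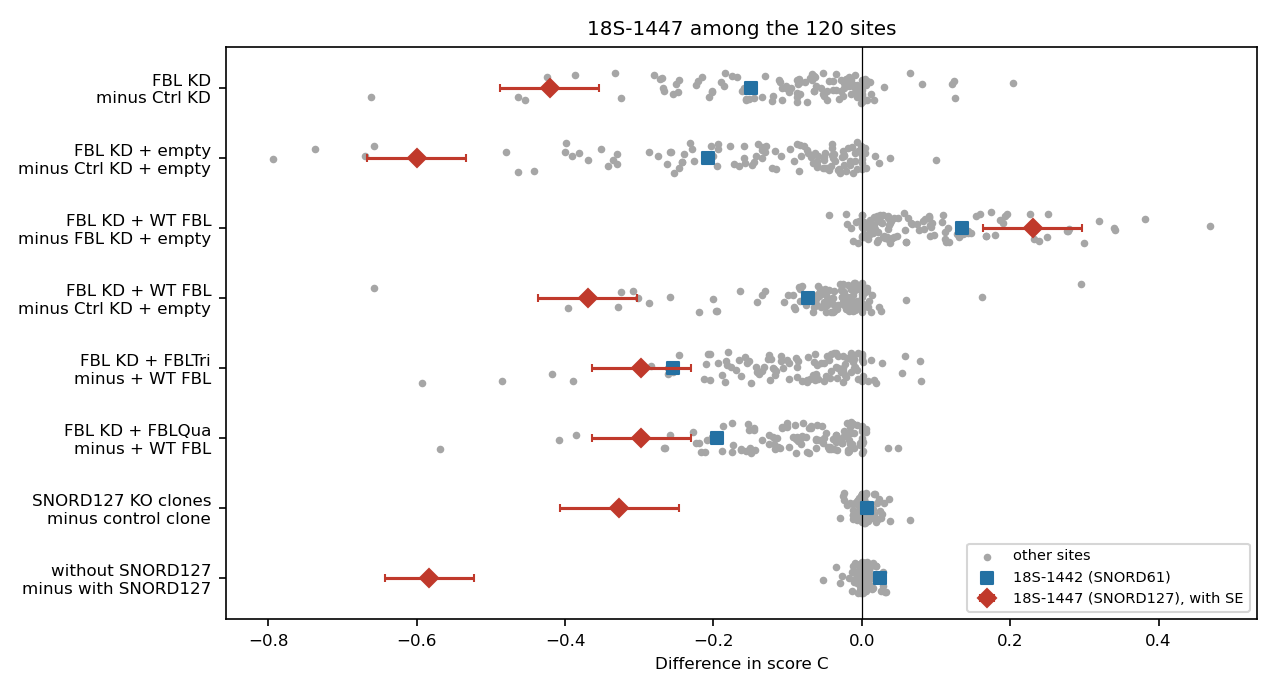
Difference in score C (horizontal axis, a fraction without unit) for 18S-1447 with its SE (diamond), 18S-1442 (square) and the other sites (grey) in 8 comparisons. In the FBL comparisons 18S-1447 lies within a broad spread of moving sites, and in the 2 SNORD127 comparisons it lies at -0.327 and -0.583 with 18S-1680 or 28S-2739 next on that side.

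Ordered by group mean before setting values to 0, clone C1 with SNORD127 came first at 0.951. Ctrl KD with empty vector (0.667), Ctrl KD (0.623) and the control clone (0.543) followed. Below them came FBL KD with wild-type FBL (0.297), the KO clones (0.216), FBL KD (0.202), FBL KD with empty vector (0.0668) and C1 with empty vector (0.0611). FBLQua (-0.0454) and FBLTri (-0.150) were last. The ranges of neighbours in this order overlapped between the 2 Ctrl KD groups, between the KO clones and FBL KD, between FBL KD and FBL KD with empty vector, and between FBL KD with empty vector and C1 with empty vector. With position -1 left out, the order changed: Ctrl KD (0.646) was above Ctrl KD with empty vector (0.585), whose ranges then did not overlap, and FBL KD (0.247) was above the KO clones (0.238). The low scores after SNORD127 knockout and after FBL knockdown overlapped, at 0.0611 to 0.254 in the 3 libraries without SNORD127 and 0.000717 to 0.275 in the 4 FBL KD libraries. With the median of the flanking counts, FBL KD without a vector scored 0 in each library, in place of 0.275 and 0.129. That group was then below FBL KD with empty vector (0.0301) and level with both mutants (0). The KO clones (0.108) and C1 with empty vector (0.0315) were above these groups. The level of FBL KD without a vector thus depended on how the flanks were averaged.

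Over the 11 group means, the sites most like 18S-1447 by Pearson's r were 28S-2774 (guide SNORD99, r = 0.746), 28S-3804 (SNORD30, 0.739), 18S-1678 (SNORD82, 0.725), 28S-3923 (SNORD111B and SNORD111, 0.722) and 28S-4340 (SNORD60, 0.713). The median r of the 116 sites compared was 0.624, and all sites share libraries and the FBL knockdown. At 28S-2774, score C averaged 0.822 in the 3 libraries without SNORD127 and 0.834 in the 2 libraries with it.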

How the data were processed

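RiboMethSeq was run on total RNA of 19 Kasumi-1 libraries, grown with 20% serum. Per the labels' protocols, alkaline hydrolysis (100 ng of RNA, 95 °C, 12 min) gave fragments near 30 nucleotides. The tools include cutadapt and Bowtie2, per the submitters' processing notes. Not given in the sources used here are versions, settings, the rRNA reference and which fragment ends were counted. Raw end counts per rRNA position, not normalized, were deposited by the authors, as was score C of 120 sites, a fraction from 0 to 1. Checked against the counts, score C is 1 minus the count 1 position after the site over its flanks (6 positions on each side, weights 1 to 0.5, with both sides' weighted means averaged), set to 0 where negative. This gave 2280 of 2280 deposited scores within 1e-09, of which 117 were 0. Score C is a ratio within a library, so depth changes its precision, and an excess of ends in a flank raises it.

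Groups were taken from sample titles. Score C was tested with limma 3.58.1 (R 4.3.3) over 120 sites, two-sided, using group coefficients, a variance trend and Benjamini-Hochberg adjustment at 0.05. The FBL comparisons used 14 libraries in 7 groups, and the SNORD127 comparisons all 19 in 11 groups, where a group of 1 library is assumed to vary like the others. End counts were tested with edgeR 4.0.16 (quasi-likelihood, TMM, positions with a mean count of at least 10) and, as an alternative, DESeq2 1.42.0. The limma and edgeR tests were tried on simulated data, DESeq2 was not. The simulated data had the same spread at every site or position, and the simulated scores had no floor at 0. They therefore do not show how the tests behave on data like these. Permutation tests used scipy 1.17.1. Counting intervals treat counts as Poisson, although the reads carry no molecular identifiers and are not independent molecules. Replicate pairs differed by a chi-square of 17.9 to 699.8 per position, so no pair was within sampling noise.

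Sites named are 18S-1447, listed sites within 12 nucleotides, its neighbours in rank and the 5 sites most like it over group means. Site pairs, top sites of the SNORD127 comparisons and libraries that stood apart were added after values were seen. The members and lists were chosen with earlier results of these data known. Alternatives covered the flanks, the scale, equal library medians, overlapping sites, the libraries fitted, each library left out and the replicate number as a block.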

Additional observations from a re-analysis of the deposited data

Results flagged for a closer look

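With 4 libraries per set, a library is listed here when its gap to the next exceeds 0.829 of the set's range, which chance gives in about 1 in 20 sets. 10 of 58 sets tested had such a library. Sets that share a library are not independent of each other.

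In the 4 Ctrl KD libraries, replicate 2 with empty vector was far above the others at 18S-1441, with a score C of 0.518 against 0 in the other 3. Relative to the median position of the window, its end counts were also far above the others at positions -9 (3.04), -3 (8.11), -1 (23.9), +1 (1.15), +2 (2.76) and +7 (3.70), and below the others at +6 (0.874). Replicate 2 of Ctrl KD without a vector was far above the other 3 at +9 (0.596). In the 4 FBL KD libraries, replicate 2 without a vector was far above the other 3 at +3 (1.47). The score C of 18S-1447 itself passed this limit in neither set.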

How the results depend on the processing

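The fall of 18S-1447 in FBL KD kept its direction and its call in all limma alternatives tried (-0.555 to -0.465 with 1 library left out, -0.392 with equal library medians). The same held without a vector (-0.494 to -0.348) and with empty vector (-0.690 to -0.510).

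Calls that changed were these. In the exact permutation test of FBL KD against Ctrl KD, leaving out replicate 2 of Ctrl KD with empty vector gave -0.473 (p = 0.0571, the smallest that 4 against 3 libraries allow). The difference between the 2 backgrounds turned to 0.0502 with flank medians, and ran from -0.269 to -0.0895 with 1 library left out. Wild-type FBL against empty vector missed the threshold when only the compared groups were fitted (0.230), on the log2 scale (0.41) and with equal library medians (0.135), and ran from 0.164 to 0.296. Wild-type FBL against Ctrl KD with empty vector missed it with the compared groups only (-0.369) and on the logit scale (-2.28). With 1 library left out it ran from -0.459 to -0.280. FBLQua against wild-type FBL missed it on the log2 scale (-0.57). Each mutant ran from -0.316 to -0.279 against wild-type FBL and from -0.133 to -0.000717 against empty vector. FBLTri against empty vector passed when scores were not set to 0 (-0.216). KO clones against the control clone passed with flank medians (-0.406) and without position -1 (-0.316), and ran from -0.365 to -0.289 without either KO clone. Libraries without against with SNORD127 missed it with the compared groups only (-0.583) and on the logit scale (-4.84), and ran from -0.787 to -0.378. The restored pair differed by 4.26 on the log2 scale and 0.808 with positions of other sites left out of the flanks. Log2 fold changes of counts at +1 ran from 1.01 to 1.24 (FBL KD), -0.42 to -0.34 (wild-type FBL) and 0.54 to 0.67 (KO clones). The causes were not tested.

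With equal library medians, sites called lower and higher for FBL KD were 28 and 51 without a vector (71 and 2 otherwise). With empty vector they were 34 and 56 (81 and 1). For wild-type FBL they were 50 and 20 against empty vector (1 and 69), and 13 and 25 against Ctrl KD with empty vector (35 and 1). Against wild-type FBL they were 24 and 42 for FBLTri (75 and 0) and 23 and 43 for FBLQua (71 and 1). On the log2 scale FBLTri against wild-type FBL had 48 lower, both mutants against empty vector had 0 called (24 and 20 for FBLTri and 14 and 9 for FBLQua otherwise), and the difference between backgrounds had 2 lower (30 otherwise).

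The labels do not say whether equal replicate numbers pair libraries. With 2 pairs per comparison, correlations of deviations ran from -0.226 to 0.694, the highest for FBLQua against wild-type FBL. With the replicate number as a block, FBL KD against Ctrl KD gave -0.510, and no call on 18S-1447 changed. For empty vector the crossed pairing changed no call either. For the clones no paired analysis was possible because the comparison has 1 control library. The widest counting interval of score C, in replicate 2 of FBL KD without a vector, reached 0.0962 to either side, against 0.0505 in the least deep library, replicate 2 of Ctrl KD.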
